A study of Mus musculus with 6 samples.

Results

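The HMGN genes of the mouse were examined as 4 loci, Hmgn1, Hmgn2, Hmgn3 and Hmgn5, in peak lists of ATAC-seq, an assay in which the transposase Tn5 inserts adapters into open chromatin. A locus was the gene body in GENCODE M21 and 20 kb on either side (mm10), and its members were all listed peak summits inside it. They came to 272 of the 1797083 summits of the series, with 96 at Hmgn1, 40 at Hmgn2, 100 at Hmgn3 and 36 at Hmgn5. The libraries were made from undifferentiated preadipocytes (day 0), the precursor cells of fat, which had been isolated from inguinal white adipose tissue and grown on collagen coated plates. There were 3 libraries of wild type (WT) cells and 3 of double knockout (DKO) cells, labelled Hmgn1-/- and Hmgn2-/-, and both groups carry the strain label C57BL/6. DKO mice lack both genes from the germline in all cells, so that no group lacks Hmgn1 alone or Hmgn2 alone, and a change in DKO cells cannot be assigned to either gene. Which exons the alleles lack is not given in the sources used here, and neither is whether the libraries of a group came from separate animals, so that p-values measure the spread between these libraries, which may be technical.

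HMGN proteins are small, abundant nuclear proteins that bind the nucleosome core particle without preference for a DNA sequence, compete with the linker histone H1 for nucleosomes and are found mainly in open, regulatory chromatin. HMGN1 and HMGN2 are the closest relatives and are present in nearly all cells. HMGN3 and HMGN5 are more restricted, and HMGN5 differs from the others in its long acidic tail. Their loci therefore bear on 2 questions: which peaks at the targeted genes Hmgn1 and Hmgn2 are still listed in DKO cells, and whether the untargeted genes Hmgn3 and Hmgn5 became more accessible there.

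The sequences below carry what follows. For the promoters, the RefSeq table of the reference (GRCm38.p6, which is mm10 in its chromosomes) held 3 of the 4 members, Hmgn1, Hmgn2 and Hmgn5, and bases upstream of the RefSeq start that lie in no annotated exon next to it are shown because the promoter peak was kept at Hmgn1 and Hmgn5 and was missing in DKO cells at Hmgn2. They lie at chr16:96127730-96127975, chr4:133968002-133968241 and chrX:109013405-109013630, all on the minus strand. The first and last lie before the annotated gene, and the second lies inside it, in an intron of the longest Hmgn2 transcript. Capitals mark CCAAT (an NF-Y core), GGGCGG (a GC box) and CACGTG (an E-box), read on either strand.
Hmgn1 promoter: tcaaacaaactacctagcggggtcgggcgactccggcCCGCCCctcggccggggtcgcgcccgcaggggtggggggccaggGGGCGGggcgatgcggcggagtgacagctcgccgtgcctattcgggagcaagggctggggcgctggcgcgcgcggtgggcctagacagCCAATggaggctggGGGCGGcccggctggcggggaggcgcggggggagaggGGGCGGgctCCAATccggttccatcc
Hmgn2 promoter: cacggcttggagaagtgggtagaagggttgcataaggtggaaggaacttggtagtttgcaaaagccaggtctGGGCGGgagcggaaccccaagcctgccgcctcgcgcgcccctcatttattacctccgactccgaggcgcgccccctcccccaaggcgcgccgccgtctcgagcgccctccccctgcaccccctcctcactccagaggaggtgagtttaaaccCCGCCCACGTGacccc
Hmgn5 promoter: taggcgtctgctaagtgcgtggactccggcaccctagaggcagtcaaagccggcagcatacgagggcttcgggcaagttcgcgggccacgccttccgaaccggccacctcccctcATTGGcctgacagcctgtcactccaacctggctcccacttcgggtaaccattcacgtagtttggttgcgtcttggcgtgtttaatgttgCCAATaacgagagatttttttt
GGGCGG, which SP and KLF factors bind, was found 5 times in the 300 bases around the RefSeq start of Hmgn1, 2 times at Hmgn2 and 0 times at Hmgn5, and 35.7% of all 32851 promoters of that length hold it. CCAAT was found 2, 1 and 2 times (37.4% of promoters), and CACGTG 1 time at Hmgn2 only (7.15%), where it overlaps a GC box on the opposite strand. TGACGTCA (1.79%), CCGGAAG (8.86%), GCGCATGCG (1.75%) and TGANTCA (7.81%) were in none of the 3. The longest runs of letters that the Hmgn1 and Hmgn2 promoters share have 10 bases. One is AATCCGGTTC, found in 4 of the 32851 promoters, and the other, which overlaps it in Hmgn2, is ATCCGGTTCT, found in 6. Both counts include the pair itself, for which the runs were picked.

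Away from the promoters, 3 shorter stretches of the genome (GRCm38.p6, minus strand) are shown because they carry a peak that separated, or failed to separate, the genotypes. The first, chr4:133967179-133967269, is the peak in an intron of Hmgn2 that no DKO library listed, and the second, chr4:133963439-133963589, is the peak beyond the 3′ end of Hmgn2 that no WT library listed. In both, capitals run over the stretch between the outermost summits of 3 libraries. The third, chr16:96126757-96126877, lies under the peak in the first intron of Hmgn1, and capitals mark TGANTCA, the letters bound by AP-1, which 23.1% of all 179024 windows of the series hold in their central 121 bases.
Hmgn2 intron peak: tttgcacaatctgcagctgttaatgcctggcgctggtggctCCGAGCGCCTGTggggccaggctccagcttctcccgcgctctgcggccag
Hmgn2 downstream peak: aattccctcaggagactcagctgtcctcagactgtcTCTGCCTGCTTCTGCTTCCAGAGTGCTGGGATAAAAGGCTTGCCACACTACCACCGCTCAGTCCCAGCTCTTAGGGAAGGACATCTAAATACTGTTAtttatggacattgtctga
Hmgn1 intron peak: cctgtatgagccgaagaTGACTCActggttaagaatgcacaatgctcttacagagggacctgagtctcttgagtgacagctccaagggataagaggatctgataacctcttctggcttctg
Of the bases shown, 0% of the Hmgn2 intron peak, 31.1% of the Hmgn2 downstream peak and 16.5% of the Hmgn1 intron peak are masked as repeats in the reference.

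The lists bound what can be read from a missing peak. Each holds close to 300000 summits, the most the authors kept, so a weak peak can drop out of a list that is filled by better ones. The lowest −log10 p of the WT lists was 4.33, 3.63 and 5.63 and that of the DKO lists 4.10, 4.17 and 3.54, by replicate number, and the 6 libraries listed 42, 48 and 48 summits (WT) and 47, 45 and 42 summits (DKO) at the 4 loci. Read totals were not analysed here, and the depth behind a summit is therefore unknown. The labelled cell type was checked at promoters: 9 of 10 preadipocyte and stromal markers had a listed promoter summit in all 6 libraries (Ly6a in none), as did 0 of 4 immune, 1 of 3 endothelial (Pecam1), 0 of 2 glial, 0 of 2 epithelial and 0 of 3 mature adipocyte markers. Of the markers of other cells, Cdh5 (endothelial) was listed in 3 DKO libraries and no WT library (fold enrichment 3.91, 7.09 and 4.26) and Adgre1 (macrophage) in 2 DKO libraries and no WT library (3.91 and 3.40). Tek (endothelial) was listed in all 3 WT libraries (3.39, 5.88 and 4.99) and in DKO replicates 1 and 2 (5.29 and 5.30). Krt8 (epithelial) was listed in WT replicates 2 and 3 (4.27 and 5.87) and in DKO replicates 1 and 3 (3.59 and 4.26). The strongest endothelial marker, Pecam1, ran the other way from Cdh5, with 16.9, 12.2 and 17.2 in WT and 11.1, 11.8 and 10.3 in DKO libraries. The part of such cells in the results was not tested.

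At Hmgn2, every peak in the gene body was missing in DKO cells. Hmgn2 (ENSMUSG00000003038.15) lies on the minus strand at chr4:133964738-133968650 and has 5 annotated transcription start sites (TSS). WT replicates listed 3, 5 and 3 summits in its 3913 bp and the DKO replicates 0, 0 and 0. All 11 WT summits lie within 1134 bp, from 133967217 to 133968350, in the 5′ part of the gene, and none of them has a DKO summit within 250 bp. The 2479 bp on the 3′ side of them, from 133964738 to 133967216, which hold 10 of the annotated exons counted over all transcripts, had no summit in any library, WT included, and neither had the bases after 133968350 up to the 5′ end of the gene. A loss in these stretches could not be seen. The study states that DKO mice lack the genomic sequences that were deleted. Whether the DNA under the 11 WT summits is present in DKO cells was not tested, so their absence from the DKO lists is not read as closed chromatin.

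The promoter peak of Hmgn2 was well inside the WT lists. In the window chr4:133967752-133968252, which reaches 250 bp to either side of a summit, lies 1 bp from a TSS at its centre and falls in an intron of the longest transcript, fold enrichment (cut sites at the summit over the library's own local background) was 7.89, 7.53 and 9.45 in WT replicates 1 to 3, a mean of 8.29 ± 1.02 (SD, n = 3). No DKO library listed the window. Its −log10 p in WT cells was 26.8, 24.3 and 36.4, far from the ends of the DKO lists given above, and it ranked at 24.7%, 21.4% and 24.6% of the WT lists counted from the smallest p. For the test, the end of a list, its lowest fold enrichment, stood in for a window it did not hold. A change at such a window says how far the WT peak stood above the weakest entries of the list, and is no measure of accessibility in DKO cells. On that scale the quantile-normalized log2 value was 2.33 ± 0.30 (SE) lower in DKO cells, written as a change of -2.33 with a 95% interval from -2.99 to -1.68, and the limma adjusted p over all 179024 windows was 0.0312. The window had entered the fit through the WT lists alone, and its 3 DKO values are the same stand-in, so that the separation of the groups and the lack of spread in DKO cells were fixed before the fit. The p-value therefore restates the listing and is no evidence beside it. It passed 0.05 with these settings but not in limma without scaling (adjusted p = 0.0510), with the replicate number as a block (adjusted p = 0.339) or when any 1 of the 6 libraries was left out (adjusted p from 0.176 to 0.244), while without each library in turn the change stayed between -2.37 and -2.29.

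The second Hmgn2 window, chr4:133966967-133967467 in an intron with its centre 224 bp from the nearest TSS, reached 7.28, 5.79 and 7.39 in WT cells and was listed in no DKO library. Its log2 change was -2.05 ± 0.32 (SE), with a limma adjusted p of 0.0657, and it, too, entered the fit through the WT lists alone and was set against the same stand-in. Further body summits were in WT replicate 2 at 133967638 (fold enrichment 2.71) and, near the upstream edge of the promoter window, in WT replicates 1 and 2 between 133968232 and 133968350 (4.08 to 4.80). The promoter value of WT replicate 3 came from a summit at that edge, 133968242. WT replicate 3 joined the promoter summits in 1 interval of 734 bp, whereas WT replicates 1 and 2 had 2 intervals each, covering 432 and 498 bp.

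**Figure D1:**
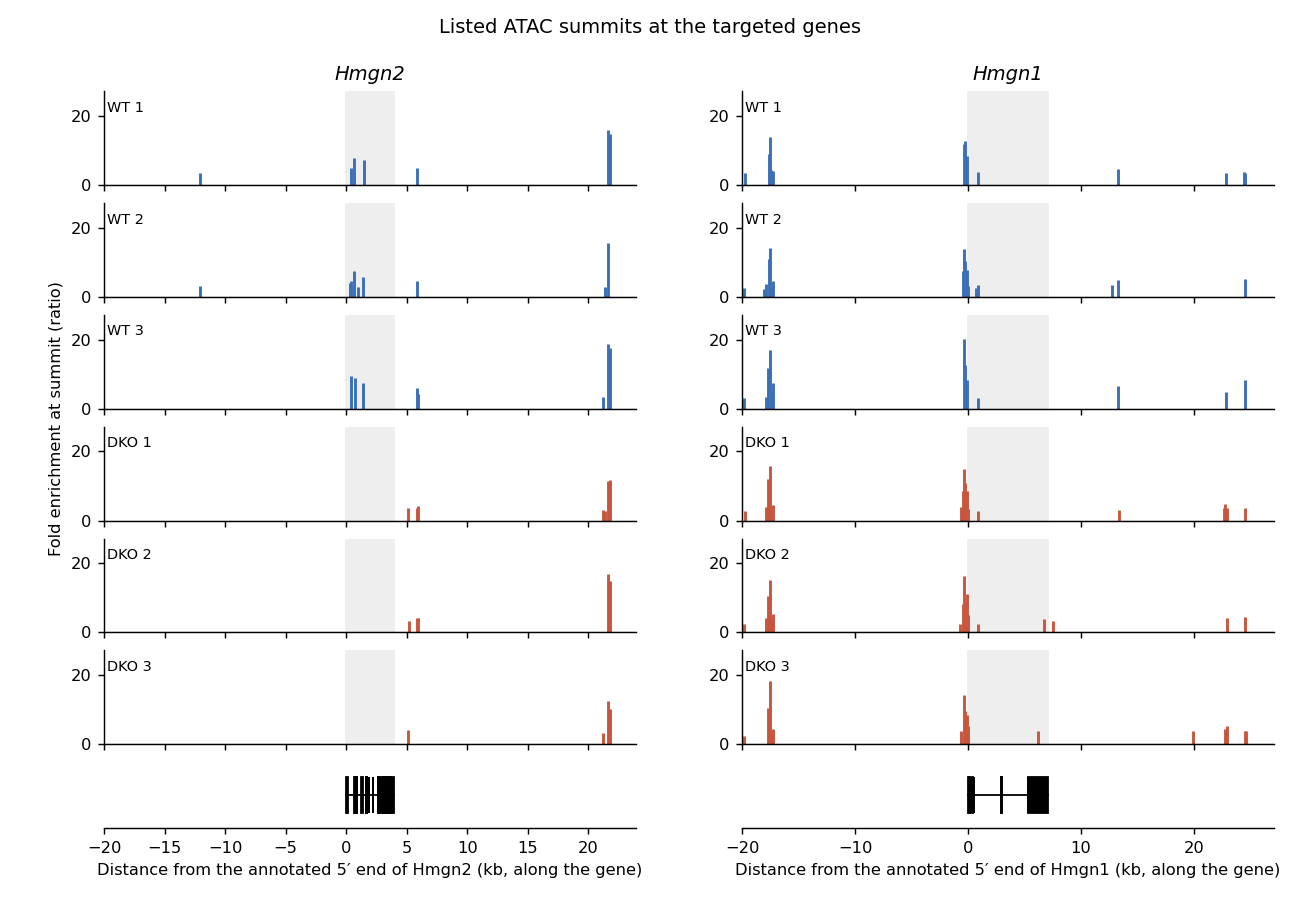
Listed summits at Hmgn2 (left) and Hmgn1 (right) in each of the 6 libraries, plotted as fold enrichment against distance in kb from the annotated 5′ end along the gene, with the gene body shaded and the exons of all transcripts in black below. The body of Hmgn2 holds 3, 5 and 3 summits in the WT libraries and 0 in each DKO library, while the Hmgn1 promoter carries summits in all 6.

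Outside the body, the missing stretch ended at peaks that DKO cells listed. Toward the 3′ side the nearest DKO summit is at 133963553 and toward the 5′ side at 134000458, next to the promoter of the neighbouring gene Dhdds, which encodes a subunit of the enzyme that makes dolichol. The interval between them spans 36904 bp, but WT libraries listed only 13 summits in it, the 11 in the Hmgn2 body and 2 in an intron of Dhdds at chr4:133980503-133981003. The 2 outside the gene were weak, at 3.50 and 3.13 in WT replicates 1 and 2 and no listing in WT replicate 3 or in DKO cells (limma adjusted p = 0.469). The summits nearest to the Dhdds promoter, between 134000665 and 134000680, had 6.36, 5.99 and 8.58 in WT cells and 9.14, 7.34 and 8.96 in DKO cells, so the listed values there were no lower in DKO cells as a group, although WT replicate 3 exceeded DKO replicate 2.

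Downstream of Hmgn2, 3 further windows were listed in DKO cells. The window chr4:133963264-133963764, 3927 bp from the nearest Hmgn2 TSS and past the 3′ end, was listed in all 3 DKO libraries, with a fold enrichment of 3.63, 3.40 and 4.26, and in no WT library. Its change was 1.36 ± 0.37 (SE), with a limma adjusted p of 0.173, and since it entered the fit through the DKO lists alone, these values again restate the listing. Its −log10 p was 5.48, 4.85 and 6.56 in DKO cells, of which the first 2 are below the lowest value in the list of WT replicate 3. In fold enrichment that list reaches as low, with 3.15 (−log10 p 6.43) at 96126811 in Hmgn1. Why WT replicate 3 has no listing here was not tested. Its neighbour chr4:133962543-133963043 ran the other way, with 4.95, 4.48 and 6.02 in WT cells, 4.19 and 4.25 in DKO replicates 1 and 2 and no listing in DKO replicate 3 (change -0.64, limma adjusted p = 0.512). The strongest peak of the locus, chr4:133946749-133947249, lies 20442 bp from the nearest TSS and was kept in all libraries. It had 15.8, 15.5 and 18.6 in WT cells and 11.8, 17.0 and 12.7 in DKO cells, which overlap (change -0.13, interval -0.42 to 0.16, limma adjusted p = 0.728).

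Of 12077 protein-coding genes with at least 2 windows in the body, 1 had all of them listed in 3 WT and 0 DKO libraries, and that gene was Hmgn2, while 0 genes had the opposite pattern. These scans were chosen after the values at Hmgn2 were seen and are descriptions. Peaks as strong as that of the Hmgn2 promoter were counted with a limit taken from the gene itself, its weakest rank in a WT list, 24.7%, so that Hmgn2 is in the count by construction. Of 36988 windows within that limit in every WT list, 8 (0.0216%) were listed in no DKO library. In the opposite direction, of 35684 windows within it in every DKO list, 10 (0.0280%) were listed in no WT library. Of these windows at promoters, 2 of 11109 were listed in no DKO library, Hmgn2 and Tlr6, a receptor of innate immunity with a fold enrichment of 11.8, 12.8 and 15.4 in WT cells, and 0 of 11640 in no WT library. Over promoter peaks of any height, 37 of 14042 genes had all their promoter windows listed in 3 WT and 0 DKO libraries, and 57 had the reverse.

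At Hmgn1, the other targeted gene, the promoter peak was kept. Hmgn1 (ENSMUSG00000040681.16) lies on the minus strand at chr16:96120618-96127729 and has 2 annotated TSS. Its promoter window, chr16:96127845-96128345, 366 bp upstream of a TSS, had values of 12.6, 13.9 and 20.1 in WT cells (15.5 ± 4.02 SD, n = 3) and 14.9, 16.3 and 14.4 in DKO cells (15.2 ± 0.961 SD, n = 3). The groups overlap, with WT replicate 3 the highest and WT replicate 1 the lowest of the 6. The change was 0.14 ± 0.13 (SE) with a 95% interval from -0.15 to 0.42 (limma adjusted p = 0.706), and the promoter ranked at 9.30%, 4.21% and 3.61% of the WT lists and 3.98%, 2.61% and 3.34% of the DKO lists. Listed intervals within 1 kb of a TSS covered 931 to 1085 bp in WT and 946 to 1176 bp in DKO libraries.

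In the body of Hmgn1 there was little to lose. WT replicates listed 1, 3 and 1 body summits and DKO replicates 2, 3 and 2, and 0 of the 5 WT summits lacked a DKO summit within 250 bp. Among summits with a −log10 p of at least 5.63, the highest of the list ends, 3 of 4 WT summits lacked such a DKO summit. No library listed a summit from 96121494 to 96126802, a stretch of 5309 bp that holds 2 whole exons, so a deletion there would leave these lists as they are and the label Hmgn1-/- could not be checked at its gene. The peak in the first intron, chr16:96126623-96127123, was weak in all libraries that listed it, with 3.75, 3.35 and 3.15 in WT cells, 2.90 and 2.59 in DKO replicates 1 and 2 and no listing in DKO replicate 3. All 3 WT values were above the DKO values as deposited, but the change of -0.37 ± 0.43 (SE) had a limma adjusted p of 0.761. DKO replicate 2 alone listed summits at 96120202 and 96120962 (fold enrichment 3.40 and 3.97) and DKO replicate 3 alone at 96121493 (3.93), around the 3′ end, where no WT library had any.

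Beyond the gene, the changes at the Hmgn1 locus went both ways and none passed the threshold. The window chr16:96114198-96114698, in an exon of the lincRNA AC144797.1, had 4.67, 4.84 and 6.46 in WT cells, 3.08 in DKO replicate 1 and no listing in DKO replicates 2 and 3. Its change was -1.33 ± 0.39 (SE), with a limma adjusted p of 0.194, and the groups do not overlap. In an intron of the same lincRNA, chr16:96104562-96105062 had 3.50 and 4.70 in WT replicates 1 and 3, no listing in WT replicate 2, and 4.75, 4.25 and 5.24 in DKO cells (change 0.88, limma adjusted p = 0.415). The remaining windows had changes of -0.28 at chr16:96102931-96103431, also in an intron of the lincRNA (3.80, 5.12 and 8.22 in WT cells, 3.63, 4.53 and 3.93 in DKO cells, limma adjusted p = 0.720), and 0.10 at chr16:96147252-96147752 (3.34, 2.46 and 3.19 in WT cells, 2.82, 2.60 and 2.54 in DKO cells, limma adjusted p = 0.961). The latter lies in an intron of Wrb and in an exon of the antisense gene AC164647.1, with its centre 82 bp from the TSS of AC164647.1. In both windows the groups overlap. The promoter of Wrb, which encodes a receptor subunit for the insertion of tail-anchored proteins, lies at chr16:96145016-96145516. It had 14.0, 14.2 and 16.9 in WT cells and 15.9, 15.3 and 18.3 in DKO cells (change 0.27 ± 0.12, limma adjusted p = 0.425). The nearest window past the threshold on chromosome 16 is 2698 kb away, at chr16:93421912-93422412, and was higher in DKO cells (change 2.63). On chromosome 4, leaving the Hmgn2 promoter aside, the nearest is 81701 kb away.

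**Figure D2:**
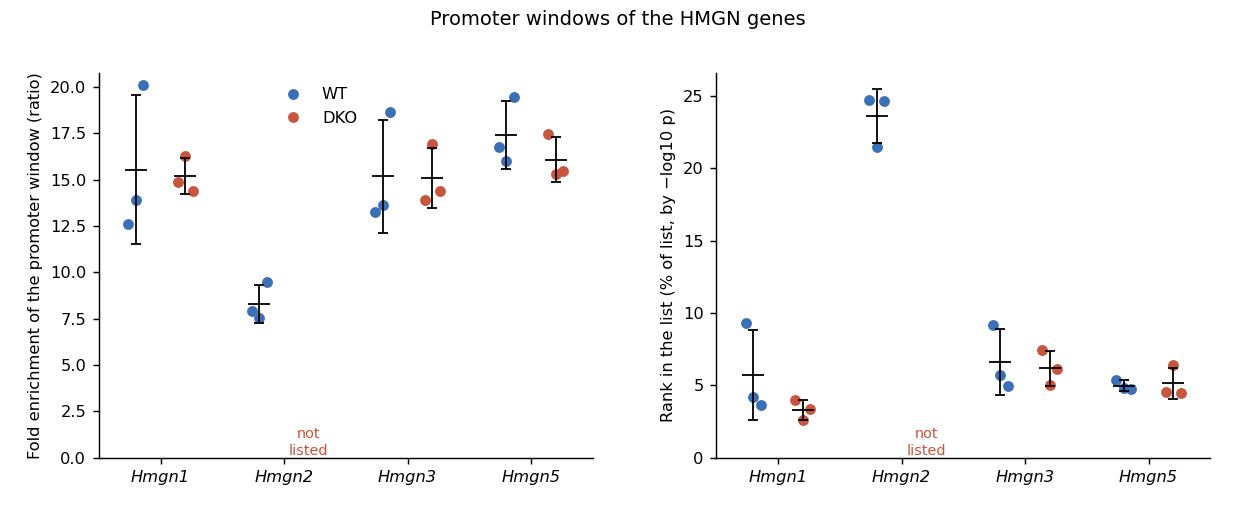
Promoter window of each gene in the 3 WT and 3 DKO libraries, as fold enrichment (left) and as the rank within the list in percent, where a low rank is a strong peak (right). Points are libraries and bars the mean ± SD (n = 3), and at Hmgn2 the WT values are 7.53 to 9.45 with no listing in DKO cells while the groups overlap in fold enrichment at Hmgn1, Hmgn3 and Hmgn5.

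The untargeted gene Hmgn3 showed no change past the threshold at any of its 8 windows. Hmgn3 (ENSMUSG00000066456.14), whose product has a long and a short splice form, lies on the minus strand at chr9:83109948-83146685 with 4 annotated TSS. Its promoter window, chr9:83146398-83146898, 37 bp from a TSS, had 13.2, 13.6 and 18.7 in WT cells (15.2 ± 3.02 SD, n = 3) and 13.9, 16.9 and 14.4 in DKO cells (15.1 ± 1.62 SD, n = 3). The groups overlap, and the change of 0.15 ± 0.12 (SE) had a 95% interval from -0.11 to 0.41 (limma adjusted p = 0.624). It was 0.0030 without scaling, 0.06 without WT replicate 1 and 0.09 without DKO replicate 2, and ran up to 0.21 with the other libraries left out in turn. The promoter ranked at 9.19%, 5.68% and 4.92% of the WT lists and 7.40%, 4.99% and 6.12% of the DKO lists.

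Of the other Hmgn3 windows, the one nearest to the promoter came closest to a difference. The window chr9:83145760-83146260, in the first intron and in an exon of Gm29054, a transcript on the opposite strand, had 4.47, 5.01 and 4.90 in WT cells and 6.55, 5.12 and 6.56 in DKO cells. The deposited values do not overlap, the quantile-normalized values do, and the change of 0.51 ± 0.23 (SE) had a limma adjusted p of 0.425. The strong intronic peak chr9:83115420-83115920, which overlaps an exon of Gm2065, had 11.7, 13.4 and 17.1 in WT cells and 14.3, 10.5 and 10.8 in DKO cells (change -0.08, limma adjusted p = 0.880). The intronic window chr9:83124832-83125332 had the widest interval of the locus (-1.42 to 1.26), with 4.09 and 8.22 in WT replicates 1 and 3, 5.95 and 3.28 in DKO replicates 2 and 3 and no listing in the other 2 libraries. The 4 windows past the 3′ end, in introns of the lincRNA Gm38398, had changes between -0.30 and -0.02, none past the threshold, and the strongest of them, chr9:83103754-83104254, had 8.31, 9.64 and 11.7 in WT cells and 9.48, 9.63 and 6.77 in DKO cells.

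Hmgn5, too, had no window past the threshold. Hmgn5 (ENSMUSG00000031245.8) lies on the minus strand at chrX:109004534-109013404 and has 1 annotated TSS. Its promoter window, chrX:109013241-109013741, 87 bp upstream of the TSS, had 16.8, 16.0 and 19.5 in WT cells (17.4 ± 1.82 SD, n = 3) and 17.5, 15.3 and 15.5 in DKO cells (16.1 ± 1.20 SD, n = 3). The change was 0.02 ± 0.10 (SE), with a 95% interval from -0.20 to 0.25 (limma adjusted p = 0.974). The first intron held a second peak in all libraries, chrX:109012718-109013218, with 6.71, 8.13 and 8.41 in WT cells and 7.77, 9.46 and 6.53 in DKO cells, and the groups overlap (change 0.21, limma adjusted p = 0.660). On its 3′ side, all libraries listed another summit, between 109012698 and 109012754, which the edge of this window splits. Its fold enrichment was 8.71, 5.64 and 7.15 in WT cells and 6.24, 6.38 and 5.66 in DKO cells, which overlap. A further window, chrX:109014092-109014592, 938 bp upstream, was listed in DKO replicates 1 and 3 alone, with 3.22 and 4.33 (change 0.94 ± 0.48, interval -0.13 to 2.01, limma adjusted p = 0.458). The remaining 8164 bp of the gene body, from 109004534 to 109012697 and with 5 exons, had no summit in any library.

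**Figure D3:**
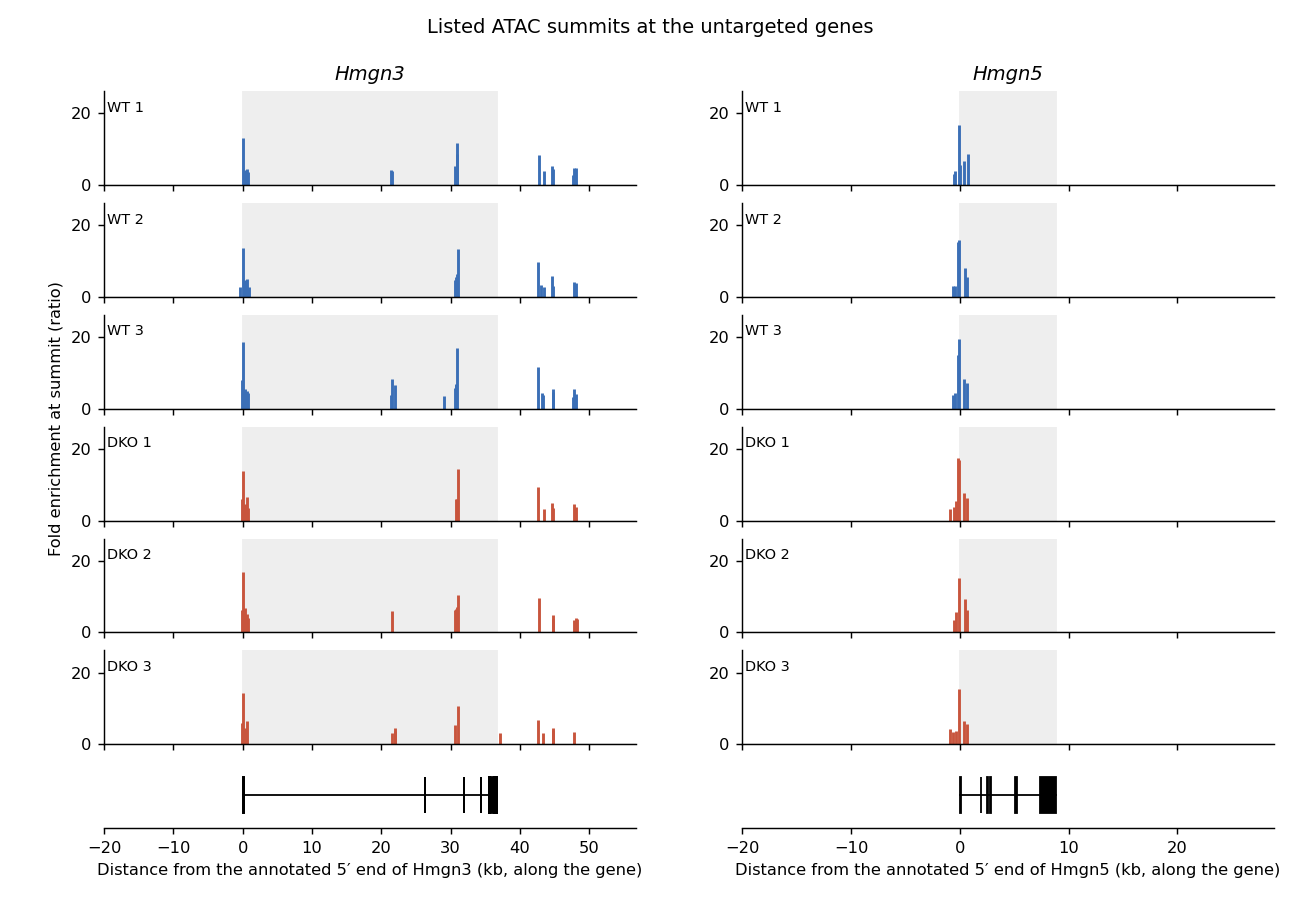
Listed summits at Hmgn3 (left) and Hmgn5 (right) in each of the 6 libraries, plotted as fold enrichment against distance in kb from the annotated 5′ end along the gene, with the gene body shaded and the exons of all transcripts in black below. Both promoters carry a strong peak in every library, from 13.2 to 18.7 at Hmgn3 and from 15.3 to 19.5 at Hmgn5, with WT and DKO values that overlap.

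The windows hold 196 of the 272 summits, and the other 76 lie between or beside them, 28 at Hmgn1, 7 at Hmgn2, 26 at Hmgn3 and 15 at Hmgn5. They were not tested, and are described after their values were seen. Joined where neighbours were at most 100 bp apart, they form 28 groups, of which 5 were listed in all 6 libraries. A window edge can split a peak and so lower this count, as in the Hmgn5 body, where the group from 109012698 to 109012710 holds 3 of the 6 libraries. Upstream of the Hmgn5 promoter window, the group from 109013790 to 109013814 had a best fold enrichment of 3.84, 2.91 and 4.50 in WT cells and 5.36, 5.86 and 3.70 in DKO cells. The next, from 109013953 to 109014025, had 3.12, 3.11 and 3.87 in WT cells and 3.81, 3.48 and 3.49 in DKO cells, and in both groups of summits the genotypes overlap.

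Next to the Hmgn3 promoter window, the summits from 83146273 to 83146338 had 4.28, 4.69 and 5.38 in WT cells and 4.69, 6.97 and 4.50 in DKO cells, which overlap. At the TSS side of the Hmgn1 promoter window, those from 96127820 to 96127825 had 8.45, 7.61 and 8.22 in WT cells and 8.60, 11.1 and 8.60 in DKO cells. These deposited values do not overlap, although the lowest DKO and the highest WT value lie close together. Nearer still to the Hmgn1 start, between 96127681 and 96127692, summits were listed in WT replicate 2 (3.04) and in all 3 DKO libraries (3.27, 5.05 and 5.18). The group beside the Wrb promoter window, from 96144962 to 96144972, had 4.15, 4.56 and 7.38 in WT cells and 4.42, 5.27 and 4.42 in DKO cells, which overlap.

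Over the 4 loci together, 24 windows were tested, 7 at Hmgn1, 6 at Hmgn2, 8 at Hmgn3 and 3 at Hmgn5, and 13 of them had a summit in all 6 libraries. Past the threshold of limma, 1 was lower in DKO cells, the Hmgn2 promoter, against 0.0385% of all windows, and 0 were higher, against 0.0235%. That 1 window repeats the count by listing given next and does not add to it, as no DKO library listed it. At an unadjusted p under 0.05 there were 3 lower and 2 higher windows of the 24, all at Hmgn1 and Hmgn2, against 6.11% and 5.69% of all windows. By listing, 2 of the 24 windows, both in the Hmgn2 body, were in 3 WT and 0 DKO libraries, against 1.23% of all windows, and 1, downstream of Hmgn2, was in 3 DKO and 0 WT libraries, against 1.14%. All WT values were above all DKO values in 4 windows (7.68% of all windows) and the reverse held in 2 (8.75%). The 2 windows in the Hmgn2 body and the 1 downstream are also in the counts by unadjusted p and by separated values. There they restate the listing, as their other genotype holds stand-in values alone. The median change of the 24 windows was -0.05, with 14 below 0 and 10 above, beside a median of 0.01 over all windows. At the untargeted genes, 0 of 11 windows passed the threshold of limma, 0 had an unadjusted p under 0.05, 0 separated the groups after quantile normalization, and the smallest limma adjusted p among them was 0.425.

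**Figure D4:**
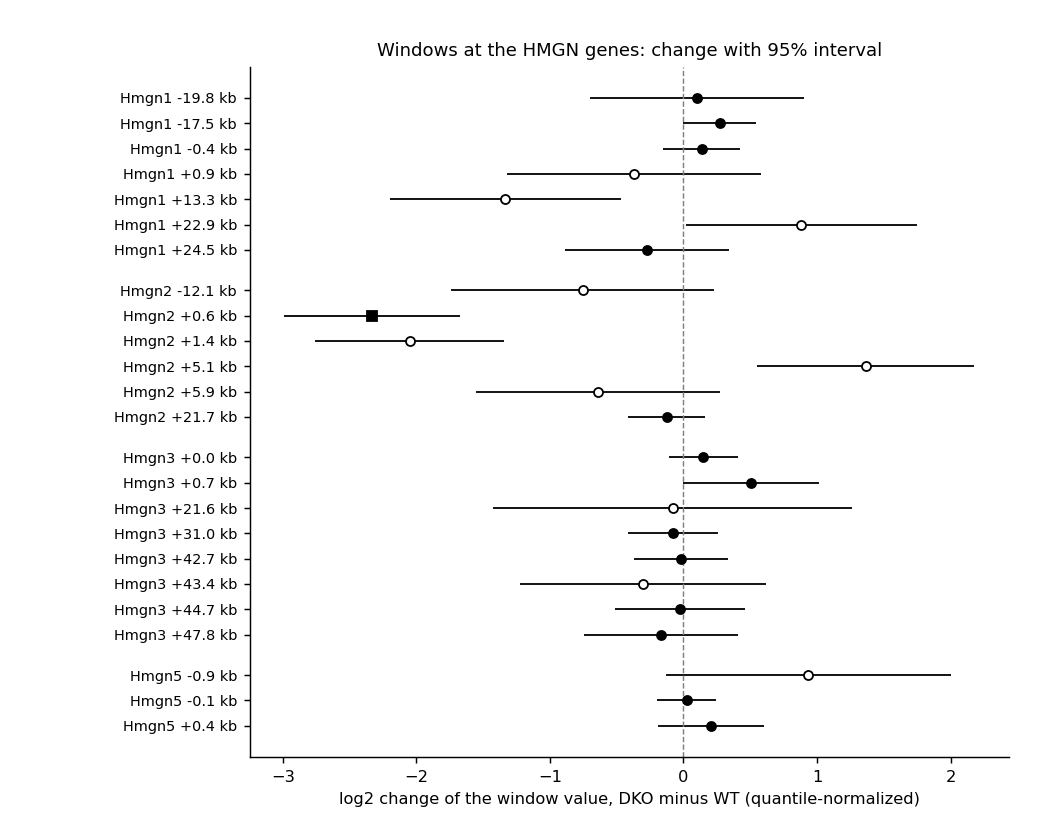
Log2 change (DKO minus WT) with its 95% interval for the 24 windows of the 4 loci, labelled by gene and distance in kb from the annotated 5′ end. The square marks the window past the threshold (Hmgn2, -2.33), filled circles have a summit in all 6 libraries, and open circles lack a listed summit in at least 1 library, where the lowest fold enrichment of that list was used.

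Counts of summits and ranks, which do not rest on fold enrichment, were put to an exact permutation test, two-sided, over every assignment of the 6 libraries to 3 and 3, in which the smallest p that can be reached is 0.10, before any adjustment over the genes and both measures. The Hmgn1 locus held 13, 17 and 13 summits in WT and 18, 18 and 17 in DKO libraries (exact p = 0.20) and the Hmgn2 locus 7, 9 and 8 in WT and 7, 5 and 4 in DKO libraries (exact p = 0.20). Hmgn3 had 16, 16 and 21 against 15, 17 and 15 (exact p = 0.50) and Hmgn5 had 6, 6 and 6 against 7, 5 and 6 (exact p = 1). For the rank of the promoter, with a missing window placed at the end of the list, Hmgn2 reached that smallest p (exact p = 0.10), which again follows from the listing, and the exact p was 0.20 for Hmgn1, 0.90 for Hmgn3 and 1 for Hmgn5.

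Among 24707 windows at promoters of protein-coding genes, all 4 promoters stood above the middle of the range where they were listed. In fold enrichment, the Hmgn2 promoter of WT cells stood above 58.5% to 60.1% of promoter windows, the lowest of the 4 genes in each WT library, whereas Hmgn1 stood above 75.7% to 89.4%, Hmgn3 above 77.6% to 88.1% and Hmgn5 above 84.1% to 90.2% over the 6 libraries. Hmgn1, Hmgn3 and Hmgn5 overlap one another in these ranges. The promoters with the most similar values over the 6 libraries, by Euclidean distance of quantile-normalized log2 values, were Cst3 (0.149), Mef2b (0.158) and Hmgn3 (0.182) for Hmgn1, Tef (0.126), Ccdc137 (0.137) and Zfp248 (0.153) for Hmgn3, and Terf2 (0.0878), Tmem80 (0.0969) and Isy1 (0.106) for Hmgn5. No promoter came as near to Hmgn2, for which the closest were Coq2 (0.552), Cdh17 (1.10) and Csf2 (1.11), all listed in 3 WT and 0 DKO libraries. Among them Coq2, an enzyme of ubiquinone synthesis, had 7.72, 6.03 and 6.76 in WT cells.

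Related genes were looked at from a list of 20 genes of nucleosome-binding and HMG-box proteins, which includes the HMGA and HMGB proteins, other HMG-box factors and the linker histones that share nucleosomes with HMGN proteins. Of the 19 with a promoter window (Hist1h1d had none), 0 passed the threshold of limma in either direction, against 0.0396% of all promoter windows. At an unadjusted p under 0.05, 3 were higher and 0 lower, against 8.15% and 2.60% of all promoter windows. Nothing is read from the count of 3, which is small. The median change was 0.07 beside 0.08 over all 30296 promoter windows. The 3 with an unadjusted p under 0.05 were the linker histone genes Hist1h1e (change 0.50, limma adjusted p = 0.264) and Hist1h1c (0.31, limma adjusted p = 0.332) and Hmg20b (0.33, limma adjusted p = 0.294), a subunit of a histone demethylase complex. At Hist1h1e the fold enrichment was 6.08, 6.56 and 7.36 in WT cells and 7.36, 8.65 and 8.99 in DKO cells. The lowest change of the list was at another linker histone gene, Hist1h1b (-0.38, limma adjusted p = 0.466), with 7.80, 5.34 and 6.98 in WT cells and 4.12, 5.51 and 3.96 in DKO cells, which overlap. Neither of the annotated pseudogenes named for Hmgn2, Hmgn2-ps1 and Hmgn2l6, had a summit within 1 kb in any library.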

How the data were processed

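The ATAC-seq lists of 3 WT and 3 DKO libraries (day 0) were used. Per the labels, the submitters' processing notes name bcl2fastq 2.17, cutadapt 1.18, Bowtie2 2.3.4.3 and MACS2, whose version is not given in the sources used here, with mm10. The authors removed duplicate and mitochondrial reads, reduced reads to Tn5 cut sites, called peaks per library, kept the best 300000 and removed blacklisted regions. The names of the lists give a p of 0.01 for the calls, whereas the study's methods state default settings, and the lists were used as they are. The deposited fold enrichment is a ratio, the deposited p and q are −log10 values, and the deposited score was not used. Start, end and summit offset in the deposited lists are positions, and were converted to count from 1.

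Windows reaching 250 bp to either side of the best ranked summits, without overlap, were kept on chromosomes 1 to 19 and X if a q under 0.01 was found in 2 or more libraries. Each window took its best fold enrichment, or the lowest of the list where no summit was listed. Log2 values were quantile-normalized and compared with limma 3.58.1 in R 4.3.3 (lmFit, two-sided eBayes with trend). P-values were adjusted over all windows by Benjamini-Hochberg (threshold 0.05), and the fit was tested on simulated data. Promoter windows were those centred within 1 kb of a TSS of GENCODE M21. Described were the members, all windows at their loci, genes starting there, the list of 20 related genes with its extremes, and the 3 promoters nearest in value to each member. Members and lists were chosen with earlier results of these data known. Alternatives covered scaling, variance model, filters, flanks, thresholds and each library left out.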

Additional observations from a re-analysis of the deposited data

How the results depend on the processing

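Of 204 alternative values over 18 results, 155 changed neither a call nor a sign and stayed near any untested value. Among these 155, sizes could still shift. The difference in summits (DKO minus WT) at Hmgn3 went from -2 to -0.333 without WT replicate 3. At Hmgn1 it went from 3.33 to 1.33 with a flank of 10 kb and to 6 with 50 kb. The difference in promoter rank at Hmgn1 went from -2.39 to -0.596 without WT replicate 1. The 155 also include differences in summits that were or became 0: at Hmgn1 it was 0 with merged intervals, and at Hmgn5 it ranged from -0.5 to 0.667 around 0. The list end limits every missing peak, and 3 libraries a group limit small changes. Windows past the threshold, 69 lower and 42 higher, were 156 and 87 with median centring, 14 and 12 without scaling, 2085 and 2042 without the variance trend, 614 and 296 where all 6 libraries had a summit, and 512 and 273 over the 50000 best summits. They were 0 and 0 with a replicate block in limma (18181 windows at an unadjusted p under 0.05), and between 0 and 1 lower and 0 and 0 higher without each library in turn (17760 to 21469 unadjusted). Same-numbered libraries did not deviate together (correlations 0.0056, -0.011 and -0.0071), so the block shares only a number. Without scaling the median of all windows shifted by -0.14.

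The change at the Hmgn2 promoter kept its direction and missed the threshold without scaling (-2.42, limma adjusted p = 0.0510), with the replicate block (-2.33, limma adjusted p = 0.339) and without each library in turn (-2.37 to -2.29, limma adjusted p from 0.176 to 0.244). Its second window passed with median centring (-1.98, limma adjusted p = 0.0464) and without the trend (-2.05, limma adjusted p = 0.0132). With a summit required in all 6 libraries, and with only the 50000 best summits of each list, both Hmgn2 windows gave no value.

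The change at the Hmgn3 promoter ranged from 0.0030 to 0.21 over its alternatives. The small promoter changes turned sign at Hmgn1 without scaling (-0.0054) and without WT replicate 1 (-0.0059, in a range of -0.0059 to 0.24 without each library), and at Hmgn5 without scaling (-0.11), without WT replicate 1 (-0.0020) and without DKO replicate 1 (-0.025, in a range of -0.025 to 0.084). The difference in promoter rank (DKO minus WT, percent of list) turned sign at Hmgn3 without WT replicate 1 (0.872) and without DKO replicate 2 (0.167, in a range of -1.26 to 0.872), and at Hmgn5 by fold enrichment (-0.0925) and without DKO replicate 2 (-0.464, in a range of -0.464 to 0.481). The difference in summits at Hmgn2 was 0.333 over the 50000 best. The interval without DKO summits at Hmgn2 was 36943 bp with a common −log10 p of at least 5.63 and without DKO replicate 1, 36915 bp without DKO replicate 2 and otherwise 36904 bp. At Hmgn1 it was 863 bp with 100 bp as the limit for a shared summit and 6187 bp with the common p, where 3 of 4 WT body summits had no DKO summit nearby. The cause was not tested.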
